A study of Mus musculus with 12 samples.

Results

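The 4 cytokine genes Il4, Il5, Il13 and Csf2 were followed in innate lymphoid cells (ILCs) sorted from mouse joints. They were chosen by name as the type 2 cytokines of these cells and were found by symbol among the 32285 genes of the deposited matrices. Their UMIs (unique molecular identifiers, 1 per captured transcript) were counted in 3957 group 2 ILCs (ILC2 cells) of 12 hashtags in 4 wells, with the other ILC classes and the fibroblasts beside them.

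ILC2 cells are tissue lymphocytes without antigen receptors that answer alarm signals such as interleukin-33 with a burst of type 2 cytokines. Interleukin-4 and interleukin-13 share a receptor chain and signal through STAT6 to macrophages, stromal cells and B cells. Interleukin-5 and GM-CSF, the product of Csf2, share another chain and sustain eosinophils and other myeloid cells. The genes lie along one chromosome, where Il4 and Il13 are close neighbours and the DNA repair gene Rad50 separates them from Il5.

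In experiment 1 the joint cells came from 3 STA + Il23mc mice, 3 STA mice and 3 healthy mice (untreated), each marked by its own hashtag antibody. STA stands for serum transfer arthritis, and Il23mc is the label of the added interleukin-23 treatment. Since every condition had a separate well in experiment 1, effects of the well and of the condition cannot be told apart there. In experiment 2 a mild STA, a severe STA and a healthy hashtag shared 1 well; the words mild and severe come from the feature names, while the sample labels call both STA. All mice were 8-10 weeks old, of the strain R5 x R26tdTomato and the genotype Il5 wt/Cre; R26 tdTom/tdTom, and the tissue was ankle and wrist synovium. The sort took viable CD45+ tdTomato+ cells without CD3, TCRb, TCRgd, CD11b or GR-1. Every cell was therefore chosen through past activity of the Il5 promoter, and 1 Il5 allele of every mouse carries Cre. How many Il5 UMIs come from which allele was not tested. The protocol names pools of 4 animals although only 3 hashtags were used in a well, and the number of animals behind a hashtag of experiment 2 is not given. Nothing in the labels ties mice to separate litters or days, so p-values measure the spread between these hashtags.

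Each hashtag of experiment 1 held 183 to 417 ILC2 cells and 795046 to 2030655 UMIs, with a median of 3588 to 5597 UMIs per cell. The hashtags of experiment 2 held 341 to 799 cells and 2175668 to 4638015 UMIs. The authors' cell classes were used for STA + Il23mc and healthy cells, and STA cells were classed by their nearest annotated neighbours. Tested on annotated wells left out in turn, 88.7 to 95.7% of ILC2 cells were recovered and 77.0 to 90.9% of the cells called ILC2 were ILC2. Of 12 ILC2 marker genes 11 had UMIs in each group, with Ptgdr2 at 0 in all of them. Gata3, the transcription factor that defines ILC2 cells, had 1012 to 1466 CPM (UMIs scaled to 1e6 UMIs of the hashtag) in all 12 hashtags and was not called in any comparison. No pair of wells shared more than 7 barcodes, or 2 among the cells used. In the STA + Il23mc mice 1, 2 and 3, 33.0, 12.5 and 6.20% of the cells classed as ILC2 held a UMI of the T cell genes Cd3d or Cd3e, against 10.1, 3.35 and 1.5% in the STA mice and 1.64, 1.20 and 1.31% in the healthy mice. The sort should have removed such cells. They were denser among the cells classed as ILC3, as given below, and calls of named genes that were lost without them are given with those genes. The 10 T cell markers summed to 2915, 1181 and 604 CPM in STA + Il23mc mice 1, 2 and 3. The sums were 1042 to 1140 CPM in STA mice and 787 to 974 CPM in healthy mice. STA + Il23mc mouse 3 thus lay lowest. Of 7 tested markers 1 was higher and 1 lower in STA + Il23mc against STA, where 1.7% of all tested genes were called. Against healthy 4 were higher and 1 lower, where 7.53% were called.

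The genes lie on mouse chromosome 11 (GRCm38, GENCODE M21 annotation). Il4 spans chr11:53602982-53618669 on the minus strand, Il13 chr11:53631324-53634702 on the minus strand, Il5 chr11:53720794-53725106 on the plus strand and Csf2 chr11:54247271-54249667 on the minus strand. The gap is 12654 bases from Il4 to Il13, 86091 bases from Il13 to Il5 and 522164 bases from Il5 to Csf2. The interferon-regulated transcription factor gene Irf1 lies in the last of these gaps.

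The 250 bases before the RefSeq start (GRCm38.p6) are shown for the 3 interleukins, because Il13 was called in STA + Il23mc mice while its neighbours Il4 and Il5 were not, a difference between genes that was not itself tested. Capitals mark matches on either strand to the NFAT core letters GGAAA, which read TTTCC on the other strand, and to the GATA letters. GATA was searched as AGATAA, which Il13 holds, as AGATAG, which Il5 holds in its reverse spelling CTATCT, as TGATAA and, lastly, as TGATAG. Each sequence runs 5′ to 3′ on the strand of its gene: Il4 covers chr11:53618666-53618915 (minus), Il13 chr11:53634703-53634952 (minus) and Il5 chr11:53720544-53720793 (plus).
Il4: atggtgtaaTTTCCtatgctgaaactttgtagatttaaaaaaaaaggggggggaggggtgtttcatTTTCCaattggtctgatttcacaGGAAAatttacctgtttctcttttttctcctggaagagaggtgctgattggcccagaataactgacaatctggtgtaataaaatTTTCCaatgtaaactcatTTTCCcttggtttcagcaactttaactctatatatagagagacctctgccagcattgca
Il13: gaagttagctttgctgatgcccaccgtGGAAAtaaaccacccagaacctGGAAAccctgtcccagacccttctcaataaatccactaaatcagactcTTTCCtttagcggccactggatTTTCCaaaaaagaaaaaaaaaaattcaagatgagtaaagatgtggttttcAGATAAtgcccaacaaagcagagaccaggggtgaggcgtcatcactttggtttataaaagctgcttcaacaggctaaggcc
Il5: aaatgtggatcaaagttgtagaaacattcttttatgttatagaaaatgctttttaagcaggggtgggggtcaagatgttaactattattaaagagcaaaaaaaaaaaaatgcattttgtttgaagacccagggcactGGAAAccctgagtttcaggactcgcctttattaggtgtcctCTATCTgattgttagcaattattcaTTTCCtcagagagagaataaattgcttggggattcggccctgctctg
The Il13 window held AGATAA at base -81 from the start and 4 matches to GGAAA. The Il5 window held CTATCT at base -72 and 2 matches to GGAAA. No GATA letters were found in the Il4 window shown, which held 5 matches to GGAAA. Another RefSeq start of Il4, away from the annotated gene start and not shown, differed. Its window held GATA letters at base -80 and 0 matches to GGAAA. Of 32851 promoters in the same table, in windows of the same length, 26.5% held the GATA letters and 55.6% held GGAAA. The letters TATAAA stood at base -29 in Il13, overlapping a match on the other strand at -31, and 12.4% of promoters held them. The AP-1 letters TGANTCA, held by 6.75% of promoters, were in none of the 3 windows. All 4 genes matched an entry. A match describes the letters and not a bound site.

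Il13, the effector cytokine of barrier and stromal responses, was the member that set the STA + Il23mc mice apart. Its level in ILC2 cells of STA + Il23mc mice 1, 2 and 3 was 167, 274 and 326 CPM, against 527, 682 and 626 CPM in STA mice and 602, 688 and 861 CPM in healthy mice. All 3 STA + Il23mc mice lay below all 6 other mice, and STA and healthy mice overlapped. The means were 256 ± 81.0 CPM in STA + Il23mc mice, 612 ± 78.4 CPM in STA mice and 717 ± 132 CPM in healthy mice (SD, n = 3 each). Il13 fell in STA + Il23mc against STA by 1.20 (log2 fold change, SE 0.22; adjusted p = 0.00891, edgeR quasi-likelihood test) and against healthy by 1.36 (SE 0.22, adjusted p = 0.00119, edgeR). Both comparisons share the STA + Il23mc mice. STA against healthy stood at -0.16 (SE 0.21, adjusted p = 0.785, edgeR) and did not pass.

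The share of Il13-positive cells and the UMIs in each positive cell were both lower in STA + Il23mc mice. Cells were thinned to 2000 UMIs each, so that depth did not set the share of cells with a UMI, and no cell was too shallow for that. The thinned share with an Il13 UMI was 9.42, 15.5 and 15.9% in STA + Il23mc mice, against 26.6, 30.1 and 30.0% in STA mice and 24.6, 25.7 and 27.5% in healthy mice. The highest STA + Il23mc mouse stood below the lowest of the other mice. The difference was -15.3 percentage points against STA and -12.3 points against healthy (p = 0.1 each by a two-sided exact permutation test, the smallest that 3 mice against 3 allow, 0.2 after adjustment over 12 such tests). Without thinning the differences were -19.9 and -14.8 points. Positive cells held a mean of 5.60 ± 0.41 Il13 UMIs in STA + Il23mc mice, 8.89 ± 1.21 in STA mice and 9.75 ± 1.87 in healthy mice (SD, n = 3 each, not thinned).

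Il13 also fell in ILC2 cells without a Cd3d or Cd3e UMI. In these Il13 stood at 250, 273 and 305 CPM in STA + Il23mc mice, against 482, 652 and 629 CPM in STA mice and 584, 693 and 875 CPM in healthy mice. The log2 fold change was then -1.02 against STA (adjusted p = 0.00102, edgeR) and -1.22 against healthy (adjusted p = 5.58e-05, edgeR). The call against STA was lost without STA mouse 2 (-1.10, adjusted p = 0.0550, edgeR), and the call against healthy held whichever mouse was left out. Summed over all lymphoid cells instead of ILC2 cells, the changes were -1.50 and -1.57 and neither passed (adjusted p = 0.125 and 0.0512, edgeR).

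**Figure D1:**
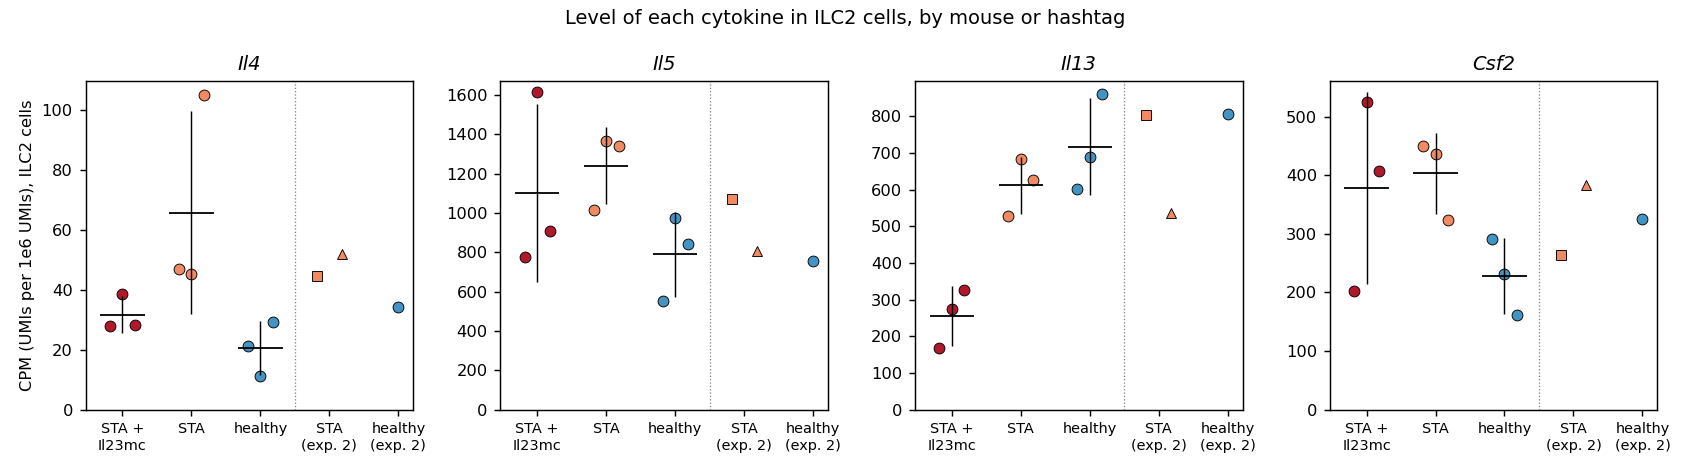
Level of each cytokine in ILC2 cells in CPM (vertical axes, 1 panel per gene). Each point is 1 mouse of experiment 1 (left of the dotted line, with mean and SD as lines, n = 3) or 1 hashtag of experiment 2 (square mild STA, triangle severe STA, circle healthy); all 3 STA + Il23mc mice lie at 326 CPM of Il13 or lower, while their Il5 runs up to 1618 CPM.

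Il4, which instructs type 2 helper T cells and B cell class switching, was the scarcest of the members and the one called in STA. It had 47.1, 45.4 and 105 CPM in STA mice 1, 2 and 3, against 21.4, 11.3 and 29.3 CPM in healthy mice. The lowest STA mouse stood above the highest healthy mouse. Il4 rose in STA by a log2 fold change of 1.81 (SE 0.37, adjusted p = 0.0157, edgeR), with means of 65.9 ± 34.0 CPM in STA mice and 20.7 ± 9.02 CPM in healthy mice (SD, n = 3 each).

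Few cells made up these Il4 levels. STA mouse 1 held 54 Il4 UMIs in 32 of 188 cells, while STA mouse 3 held 112 UMIs in 15 of 200 cells, with 50 UMIs in 1 cell. In STA mouse 3 the top 5% of cells held 95.5% of the Il4 UMIs, and over the 12 hashtags this share ran from 55.6 to 100%. Without the highest cell of each member in each hashtag (a choice made once the single cell with 50 UMIs was known) Il4 still rose in STA (1.504, adjusted p = 0.00940, edgeR). The thinned share of Il4-positive cells was 10.1, 5.74 and 4.5% in STA mice, against 4.37, 2.16 and 3.49% in healthy mice, with no overlap (difference 3.44 points, p = 0.1 by an exact permutation test, adjusted p = 0.2). Unthinned, it was 17.0, 11.96 and 7.5% in STA mice, against 6.56, 4.32 and 6.11% in healthy mice.

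The Il4 call rested on single mice and on how cells were chosen. It was lost without healthy mouse 2 (1.43, adjusted p = 0.103, edgeR), without STA mouse 3 (1.29, adjusted p = 0.0537, edgeR), with 1 rule for hashtags and classes in all wells (1.59, adjusted p = 0.0554, edgeR) and over all lymphoid cells (1.48, adjusted p = 0.313, edgeR). Mast cells also make interleukin-4, and the 12 mast cell and basophil markers summed to 22.7 to 236 CPM in STA mice, with the highest sum in STA mouse 1, against 3.55 to 19.7 CPM in healthy mice. Mcpt8 and Mrgprb2 were at 0 in the STA mice, and those genes plus Cpa3, Fcer1a, Ms4a2, Gata2, Cd200r3 and Mrgprb1 were at 0 in the healthy mice. Without cells holding UMIs of at least 2 such markers, Il4 rose in STA by 1.77 (adjusted p = 0.0188, edgeR), close to the value with them. Genes of B or plasma cells were looked at as well. Of the 3 that could be tested, Igkc, Ighm and Cd79b, 1 rose in STA against healthy, the immunoglobulin light chain gene Igkc (3.04, adjusted p = 0.0263, edgeR), with means of 41.7 ± 25.7 CPM in STA mice and 5.66 ± 8.96 CPM in healthy mice (SD, n = 3 each). In STA + Il23mc mice Igkc and Ighm were lower than in STA (-6.67, adjusted p = 0.00510, and -2.55, adjusted p = 0.00542, edgeR). Against healthy, 1 of these 3 genes was higher and 1 lower in STA + Il23mc mice. The part of these genes in the Il4 levels was not tested. In STA + Il23mc mice Il4 had 27.9, 38.8 and 28.3 CPM. Against STA it stood at -0.97 (SE 0.35, adjusted p = 0.245, edgeR) with no overlap, and against healthy at 0.84 (SE 0.40, adjusted p = 0.255, edgeR) with overlap. The separation from STA was lost without cells holding Cd3d or Cd3e, where Il4 stood at 47.3, 43.4 and 29.5 CPM in STA + Il23mc mice, against 45.4, 46.1 and 107 CPM in STA mice, and the value against STA was -0.45 without STA mouse 3.

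Il5, the eosinophil growth and survival factor and the gene used for the sort, had the highest count of the members when summed over all hashtags, although Il13 had more UMIs than Il5 in healthy mice 1 and 3 and in the healthy hashtag of experiment 2. It had 1017, 1365 and 1341 CPM in STA mice, against 551, 977 and 842 CPM in healthy mice. These groups did not overlap, yet the rise of 0.71 (SE 0.26) did not pass over all genes (adjusted p = 0.204, edgeR). STA + Il23mc mice had 777, 1618 and 909 CPM, a spread that covered both other groups. The log2 fold change there was -0.11 (SE 0.26, adjusted p = 0.926, edgeR) against STA and 0.60 (SE 0.26, adjusted p = 0.210, edgeR) against healthy. The thinned share of Il5-positive cells was 23.6, 28.7 and 33.7% in STA + Il23mc mice, 34.6, 35.4 and 38.0% in STA mice and 21.9, 34.3 and 24.4% in healthy mice. STA stood above both other groups without overlap, by 9.13 points over healthy, while the difference of STA + Il23mc from STA was -7.33 points (p = 0.1 each by exact permutation tests, 0.2 adjusted). The nearest mice were STA mouse 1 at 34.6% and healthy mouse 2 at 34.3%. Without thinning STA and healthy mice overlapped, with 42.6% in STA mouse 2 against 43.2% in healthy mouse 2 (difference 13.2 points, p = 0.2, exact permutation test).

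Csf2, whose product GM-CSF matures and activates macrophages and granulocytes in inflamed joints, had 450, 436 and 324 CPM in STA mice, against 292, 231 and 162 CPM in healthy mice. No STA mouse overlapped a healthy mouse. The log2 fold change was 0.88 (SE 0.29, adjusted p = 0.157, edgeR). STA + Il23mc mice had 202, 525 and 408 CPM, and their log2 fold change was -0.02 (SE 0.29, adjusted p = 0.991, edgeR) against STA and 0.86 (SE 0.29, adjusted p = 0.0966, edgeR) against healthy. The thinned share of Csf2-positive cells was 16.8, 27.4 and 26.0% in STA + Il23mc mice, 22.9, 28.2 and 23.5% in STA mice and 20.8, 16.3 and 14.0% in healthy mice. STA and healthy mice did not overlap in it (difference 7.85 points, p = 0.1 by an exact permutation test, adjusted p = 0.2).

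**Figure D2:**
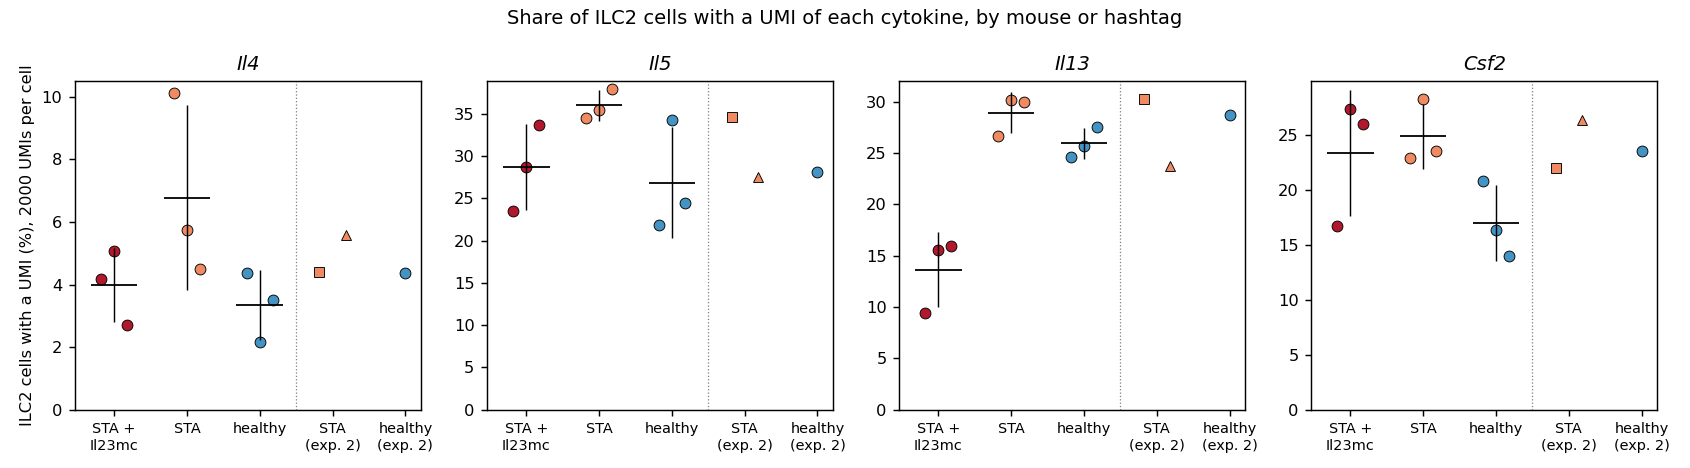
Share of ILC2 cells with at least 1 UMI of each cytokine after every cell was thinned to 2000 UMIs (vertical axes, percent, 1 panel per gene). Points are mice or hashtags as in the plot of levels, with mean and SD for the 3 mice of each group of experiment 1; the Il13 share of STA + Il23mc mice averages 13.6%, against 28.9% in STA and 25.9% in healthy mice.

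The calls for Il5 and Csf2 depended on the cells with a Cd3d or Cd3e UMI. Without those cells Csf2 passed in STA against healthy (0.87, adjusted p = 0.0279, edgeR) and in STA + Il23mc against healthy (1.12, adjusted p = 0.00224, edgeR), and Il5 passed in STA + Il23mc against healthy (0.80, adjusted p = 0.0197, edgeR). Csf2 then had 322, 574 and 428 CPM in STA + Il23mc mice, 418, 438 and 322 CPM in STA mice and 293, 229 and 164 CPM in healthy mice. Every mouse of both arthritis groups stood above every healthy mouse. Il5 then had 1163, 1684 and 899 CPM in STA + Il23mc mice and 547, 981 and 854 CPM in healthy mice, which overlapped. These cells were most frequent in STA + Il23mc mouse 1, and without that mouse Csf2 stood at 1.19 (adjusted p = 0.00201, edgeR) and Il5 at 0.83 (adjusted p = 0.0418, edgeR) against healthy.

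Counted over the members, 1 of 4 was called in STA against healthy, where 2.79% of 7393 tested genes were called. In STA + Il23mc against STA 1 of 4 was called, where 1.7% of all tested genes were, and in STA + Il23mc against healthy 1 of 4, where 7.53% were. The groups did not overlap in 3 of 4 members for STA against healthy, 2 of 4 for STA + Il23mc against STA and 1 of 4 for STA + Il23mc against healthy, where 22.8, 16.1 and 24.4% of all tested genes did not overlap (all ILC2 cells). The median log2 fold change of all tested genes was -0.01, 0.01 and -0.01.

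In experiment 2, where the conditions shared a well, Il13 was at 803 CPM (95% exact Poisson interval 765 to 841, counting error only) in the mild STA hashtag and 535 (513 to 559) in the severe one, against 806 (780 to 832) in the healthy hashtag. The mild hashtag lay within the counting error of the healthy one and the severe hashtag below it. Il4 was at 44.6 CPM (36.2 to 54.4) in the mild and 51.9 (44.98 to 59.6) in the severe STA hashtag, against 34.3 (29.2 to 40.0) in the healthy hashtag. Il5 was at 1070 CPM in the mild STA hashtag and 805 CPM in the severe one, against 756 CPM in the healthy hashtag. Csf2 was at 264 and 383 CPM, against 325 CPM. Il4 and Il5 were higher in both STA hashtags than in the healthy one, though the counting intervals of the mild hashtag for Il4 and of the severe hashtag for Il5 overlapped those of the healthy hashtag, and Csf2 lay on both sides of it. The STA hashtags of this well were called by HTODemux, which gave the authors' hashtag to 70.3% of the 1303 annotated healthy cells of the same well; it called 227 of the others doublets and 160 negative, and gave none another hashtag. The healthy hashtag kept the authors' calls and classes, so cells were chosen differently by condition in this well too. With 1 rule for calls and classes the healthy hashtag held 552 ILC2 cells instead of 799. The mild STA hashtag then held 315 instead of 341 and the severe one 611 instead of 646. The part of this choice in the levels above was not tested. With 1 healthy hashtag there is no test within this experiment. In a joint fit of STA and healthy hashtags of both experiments, with an experiment term, Il4 rose in STA by 1.26 (adjusted p = 0.0261, edgeR).

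The Il13 to Il5 UMI ratio within a hashtag does not depend on the total count and was looked at after the values above were seen, so no test was made of it. It was 0.215, 0.169 and 0.359 in STA + Il23mc mice, 0.519, 0.499 and 0.467 in STA mice, and 1.09, 0.705 and 1.02 in healthy mice. In experiment 2 it was 0.750 in the mild and 0.665 in the severe STA hashtag, against 1.07 in the healthy hashtag. The 3 groups of experiment 1 were fully separated, and both STA hashtags of experiment 2 stood below the healthy one of their own well. A ratio shows unequal levels and not which gene differed.

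**Figure D3:**
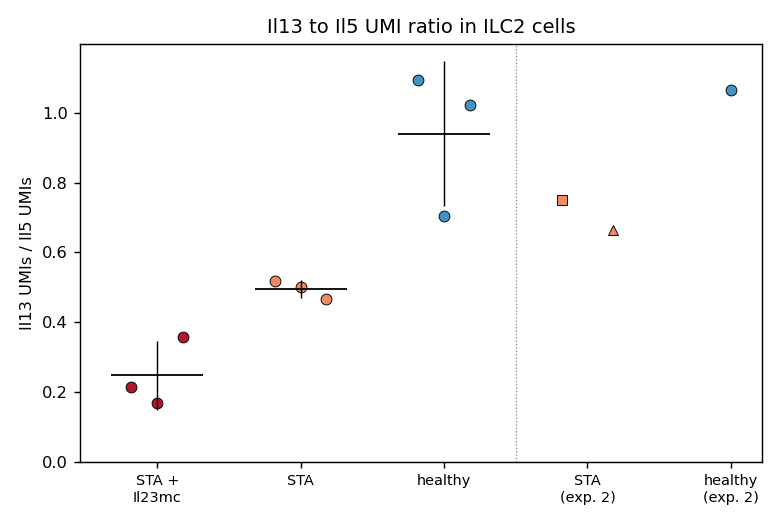
Ratio of Il13 UMIs to Il5 UMIs in ILC2 cells (vertical axis) for each mouse of experiment 1 (mean and SD as lines, n = 3) and each hashtag of experiment 2 (square mild STA, triangle severe STA, circle healthy). The highest STA + Il23mc mouse is at 0.359, the STA mice span 0.467 to 0.519 and the lowest healthy mouse is at 0.705.

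The order of the ratio was the same in other choices of cells. Without cells holding Cd3d or Cd3e it was 0.215, 0.162 and 0.339 in STA + Il23mc mice, 0.440, 0.467 and 0.470 in STA mice and 1.07, 0.707 and 1.02 in healthy mice. Without the highest cell of each member it was 0.192, 0.172 and 0.325 in STA + Il23mc mice, 0.497, 0.467 and 0.441 in STA mice and 1.17, 0.632 and 1.16 in healthy mice. Over all lymphoid cells the nearest mice were STA mouse 3 at 0.725 and healthy mouse 2 at 0.793. Il13 made up 14.3, 11.2 and 19.5% of the UMIs of the 4 genes in STA + Il23mc mice, 25.8, 27.0 and 26.1% in STA mice and 41.1, 36.1 and 45.5% in healthy mice.

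Of the 6 pairs of the type 2 cytokines 4 were co-detected in single cells past the threshold. These were Il5 with Il13, Il4 with Il13, Il5 with Csf2 and Il13 with Csf2. Pairs with other genes were not tested, so whether this count is particular to these cytokines cannot be told. Of 3957 ILC2 cells 1398 (35.3%) held no UMI of the 4 genes. Il5 alone was found in 433 cells, Csf2 alone in 382, Il13 alone in 292 and Il4 alone in 70. Il5, Il13 and Csf2 without Il4 were found in 371 cells, Il5 with Il13 in 334, and all 4 genes in 65 cells (1.64%). These counts are not thinned, and cells with more members were deeper: the median depth was 4184 UMIs with none and 7656 UMIs with all 4. Cells positive for Il5, Il13 or Csf2 had a higher median depth than negative cells in 12 of 12 hashtags, and those positive for Il4 in 8 of 12.

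Co-detection was therefore tested on thinned cells, with the log2 odds ratio of holding both genes computed within each of the 12 hashtags. Il5 and Il13 were co-detected most, at a mean of 1.98 ± 0.48 (SD, n = 12), above 0 in 12 of 12 hashtags (adjusted p = 0.000977 over 6 pairs, two-sided exact sign-flip permutation test). Il4 and Il13 followed at 1.54 ± 0.81 (12 of 12, adjusted p = 0.000977, exact), Il5 and Csf2 at 1.35 ± 0.62 (12 of 12, adjusted p = 0.000977, exact) and Il13 and Csf2 at 1.26 ± 0.59 (11 of 12, adjusted p = 0.00147, exact). Il4 and Csf2 at 0.42 ± 0.65 (8 of 12, adjusted p = 0.0686, exact) and Il4 and Il5 at 0.31 ± 0.64 (7 of 12, adjusted p = 0.116, exact) did not pass. Il4 and Csf2 passed without STA mouse 1 (0.504, adjusted p = 0.0328, exact permutation test) and without STA + Il23mc mouse 2 (0.495, adjusted p = 0.0398, exact permutation test), and both pairs passed in cells that were not thinned (0.44, adjusted p = 0.00410, and 0.53, adjusted p = 0.0464, exact permutation tests). Whether the pairs differ from each other was not tested. An Il13 UMI was found in 22.2 to 55.4% of Il5-positive cells (median 41.7%), against 5.48 to 24.7% of Il5-negative cells (median 17.1%), and the share was higher in positive cells in 12 of 12 hashtags. It was found in a median of 47.2% of Il4-positive cells, against 25.9% of Il4-negative cells, and was higher in positive cells in 10 of 12 hashtags. In STA + Il23mc mouse 3 (14.3% of Il4-positive against 15.9% of Il4-negative cells) and STA mouse 1 (26.3% against 26.6%) the share was slightly lower in Il4-positive cells, and the log2 odds ratios of 0.27 and 0.054 there lie above 0 through the 0.5 added to each count. Thinning evens out the total but not cell size or class. The ILC2 subclasses described next differ in their medians of these genes, though for Il4 the ranges of all subclasses overlapped.

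**Figure D4:**
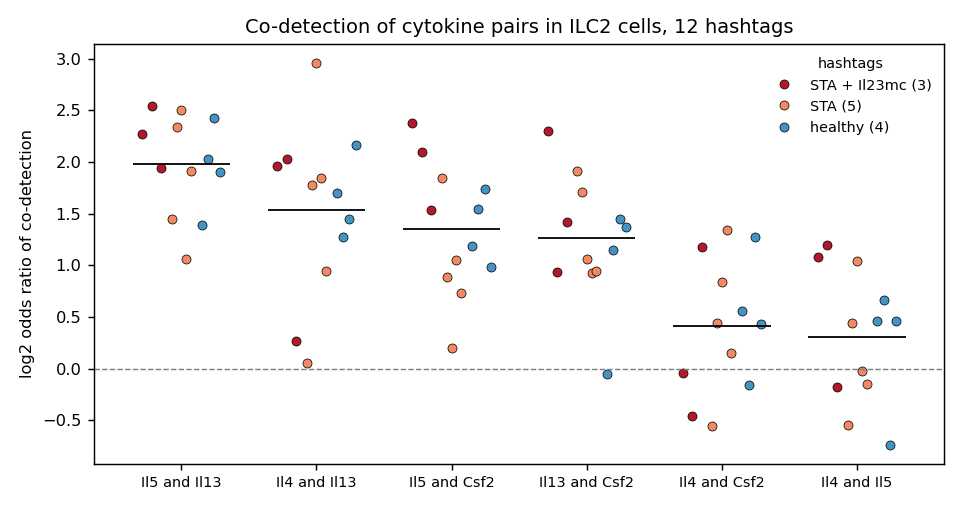
Log2 odds ratio of holding a UMI of both genes in thinned ILC2 cells (vertical axis) for the 6 pairs (horizontal axis). Each point is 1 of 12 hashtags, coloured by condition, with the mean as a line and no association at the dashed line; for Il5 and Il13 all 12 hashtags lie above 0, between 1.06 and 2.54.

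The authors split the annotated cells into the classes ILC2-1, ILC2-2, ILC2-3, ILC3-1, ILC3-2 and Precursors. These classes were made by clustering the same cells, so their levels are a description with no test, over STA + Il23mc and healthy hashtags. ILC2-3 held 11.9% of the cells but 71.2% of the Il5 UMIs, 46.2% of the Il13 UMIs and 41.6% of the Csf2 UMIs. Il5 in ILC2-3 ran from 1760 to 4486 CPM (median 2310), against a median of 570 CPM in ILC2-2 and 40.5 CPM in ILC2-1. The Il13 median was 1401 CPM in ILC2-3, 412 in ILC2-2 and 63.5 in ILC2-1, and the Csf2 median was 503, 266 and 58.5 CPM. These 3 genes were in the same order, highest in ILC2-3 and lowest in ILC2-1. The Il4 medians were not in that order: 36.3 CPM in ILC2-2, 16.6 in ILC2-3 and 13.7 in ILC2-1, with ranges that overlapped. Which of ILC2-3 and ILC2-2 had more Il4 changed between hashtags. ILC2-3 had 49.45 CPM against 47.92 in ILC2-2 in STA + Il23mc mouse 2, but 11.8 against 27.3 in healthy mouse 1. ILC2-2 held 41.0% of the Il4 UMIs in 25.9% of the cells, and ILC2-3 held 22.6% in 11.9%.

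Il13 was also found outside the ILC2 classes. ILC3-2 held 19.0% of the Il13 UMIs in 22.9% of the cells, at a median of 462 CPM, while its Il5 median was 170 CPM. ILC3-1 held 9.39% of the Il13 UMIs in 16.6% of the cells, at a median of 176 CPM. Precursors held 0.854% of the Il13 UMIs in 7.66% of the cells. Il4 was detected in a median of 2.12% of thinned Precursor cells and 1.98% of ILC3-2 cells, against 4.82% of ILC2-2 cells, and the ranges overlapped. Its UMIs lay in few cells inside and outside ILC2-2, with 22 in 3 of 55 ILC3-2 cells of healthy mouse 1. The healthy hashtag of experiment 2 held 55 in 21 of 168 ILC2-3 cells and 88 in 39 of 402 ILC2-2 cells. The level of free RNA in the ILC wells was not measured. In the fibroblast well of experiment 1, 2431 cells were annotated, with 51 chondrocytes and 76 osteoblasts among them. At a median of 14974 UMIs none held an Il4, Il5 or Il13 UMI. That allows a share of cells with a UMI of up to 0.123% and sets no limit on cells that express the gene. In the fibroblast well of experiment 2, 1117 annotated cells held 1 Il4 UMI, 1 Il13 UMI and no Il5 UMI. These are other wells, with their own free RNA.

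Within each ILC2 subclass Il13 was lower in the STA + Il23mc mice than in the healthy mice of experiment 1. In ILC2-3 it was at 672, 532 and 629 CPM in STA + Il23mc mice, against 1718, 1401 and 2605 CPM in healthy mice. In ILC2-2 it was at 51.4, 261 and 122 CPM, against 412, 465 and 783 CPM, and in ILC2-1 at 21.0, 0 and 8.80 CPM, against 94.4, 87.8 and 116 CPM. The groups did not overlap in any of the 3 subclasses, with or without the cells holding Cd3d or Cd3e. How many of all genes do not overlap within a subclass was not counted. Over all ILC2 cells 24.4% of tested genes did not overlap between these groups. The ILC2-1 values of STA + Il23mc mice 1, 2 and 3 rest on 8, 0 and 1 Il13 UMIs. Il5 in ILC2-3 was at 2654, 4486 and 1760 CPM in STA + Il23mc mice, against 1794, 2176 and 3098 CPM in healthy mice, and overlapped. ILC2-3, the subclass richest in Il13, made up 18.3, 22.3 and 38.0% of ILC2 cells in STA + Il23mc mice, against 16.9, 25.9 and 12.7% in healthy mice.

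Among the cells classed as ILC3, most of those of STA + Il23mc mice 1 and 2 held a Cd3d or Cd3e UMI, 410 of 462 and 180 of 221 cells, as did 7 of 28 in mouse 3, against 19 of 136, 6 of 76 and 6 of 151 in STA mice and 0 of 85, 2 of 150 and 33 of 463 in healthy mice. The Il13 values of this class are therefore given with and without such cells, as a description. In ILC3-2, among mice with at least 20 such cells, Il13 was at 23.9 and 155 CPM in STA + Il23mc mice 1 and 2, against 562, 464 and 459 CPM in healthy mice 1, 2 and 3, and these did not overlap. Without the cells holding Cd3d or Cd3e it was at 63.6 and 216 CPM in 47 and 33 cells of STA + Il23mc mice 1 and 2, against 562, 471 and 448 CPM in healthy mice. Il5 there was at 22.5 and 18.4 CPM in STA + Il23mc mice 1 and 2, against 266, 283 and 180 CPM in healthy mice, and without such cells at 133 and 41.5 CPM, against 266, 289 and 159 CPM. Over all ILC3 cells Il13 was at 26.0, 102 and 126 CPM in STA + Il23mc mice, 164, 240 and 627 CPM in STA mice and 407, 403 and 468 CPM in healthy mice. Without such cells it was at 73.3, 195 and 46.6 CPM in 52, 41 and 21 cells of STA + Il23mc mice, 197, 247 and 649 CPM in STA mice and 407, 407 and 431 CPM in healthy mice. The STA + Il23mc mice were below all others both ways, though mouse 2 then lay next to STA mouse 1, and STA mice lay on both sides of the healthy ones. Of annotated ILC3 cells in wells left out in turn, 61.7 to 94.2% were recovered, fewer than of ILC2 cells in both wells of experiment 1 and more in the well of experiment 2, and 60.0 to 82.2% of the cells called ILC3 were ILC3.

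**Figure D5:**
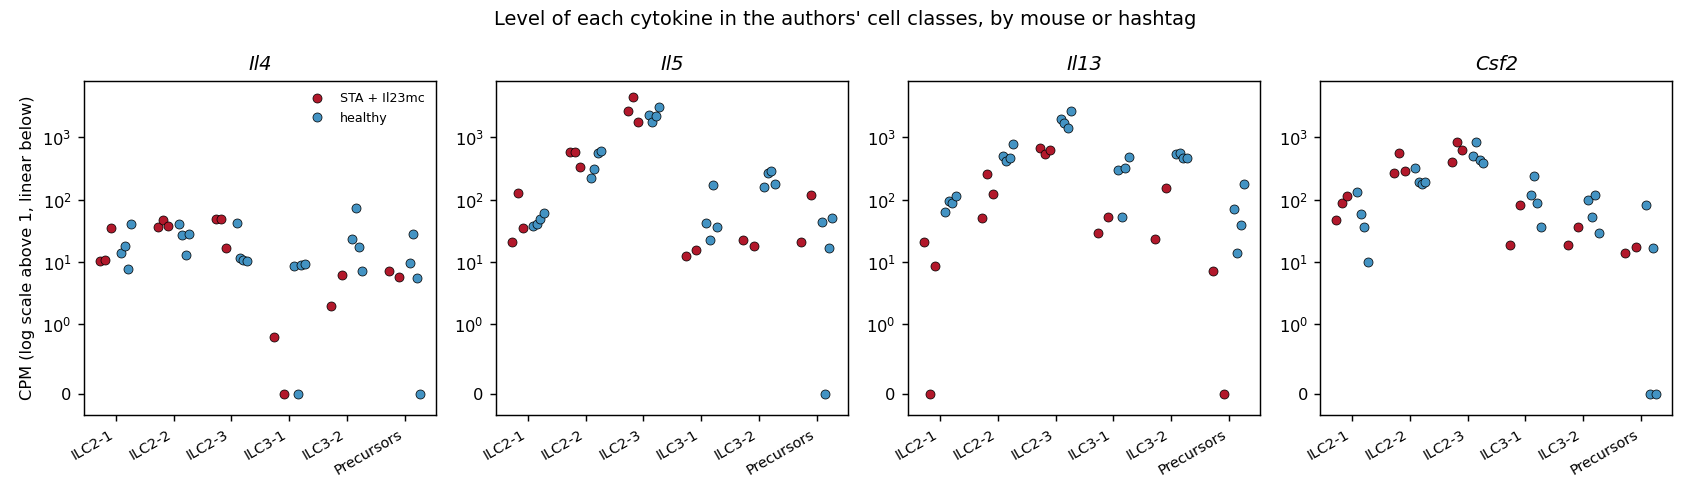
Level of each cytokine in the authors' cell classes (horizontal axes) in CPM (vertical axes, logarithmic above 1 and linear below). Each point is 1 STA + Il23mc mouse or 1 healthy hashtag of either experiment with at least 20 cells of the class; in ILC2-3 the Il13 points of STA + Il23mc mice span 532 to 672 CPM and those of healthy hashtags 1401 to 2605 CPM, while the Il5 points overlap.

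Genes around the 4 members were read from lists chosen with earlier results of these data known. Of 7 tested neighbours on the same chromosome none passed in STA against healthy (median -0.13). In STA + Il23mc against STA 1 rose and none fell (median -0.22), and against healthy 1 rose and 1 fell (median -0.35). The one that rose in both was Irf1, with 130, 147 and 115 CPM in STA + Il23mc mice, 79.4, 74.5 and 45.03 CPM in STA mice and 81.8, 62.1 and 55.1 CPM in healthy mice. It rose by 1.03 against STA (adjusted p = 0.0185, edgeR) and by 1.11 against healthy (adjusted p = 0.00357, edgeR), and the STA + Il23mc mice stood above all others. Fnip1, whose product binds folliculin, fell by 0.94 against healthy (adjusted p = 0.0317, edgeR). Without cells holding Cd3d or Cd3e Fnip1 stood at -0.71 and did not pass (adjusted p = 0.0797, edgeR).

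Among 15 other ILC cytokines and growth factors 2 rose in STA against healthy (median 0.66), namely Calca, which encodes the neuropeptide CGRP (1.64, adjusted p = 0.0163, edgeR), and Areg, the epithelial growth factor amphiregulin (0.95, adjusted p = 0.0186, edgeR). In STA + Il23mc 2 rose against STA (median 0.36), and 6 rose and 1 fell against healthy (median 0.65). The 2 were the type 3 cytokines Il22 and Il17a. Il22 was at 1269, 170 and 48.6 CPM in STA + Il23mc mice, against 0, 0 and 0.938 CPM in STA mice and 0 UMIs in each healthy mouse. Without cells holding Cd3d or Cd3e it was at 45.4, 25.7 and 46.9 CPM in STA + Il23mc mice, against 0, 0 and 0.957 CPM in STA mice. Il17a was then at 15.1, 27.3 and 22.9 CPM in STA + Il23mc mice, against 0.987, 3.41 and 0.957 CPM in STA mice. Type 3 transcripts were thus present in the summed ILC2 cells of the STA + Il23mc mice, whose summed Il13 was low. Whether the single cells holding them were low in Il13 was not tested. Free RNA of the ILC3 cells of the same well, and ILC3 or T cells classed as ILC2, were not tested as their source. The 9 ILC3 markers summed to 909 to 3429 CPM in the STA + Il23mc ILC2 cells, against 640 to 749 CPM in STA and 634 to 759 CPM in healthy cells, with Ncr1 at 0 in STA + Il23mc and healthy mice and Il22 at 0 in healthy mice. These markers include Il22 and Il17a, and the sums are over all ILC2 cells, with those holding Cd3d or Cd3e. In STA + Il23mc mouse 1 Il22 made up 1269 CPM of the sum and Il17a 634 CPM. The part of the ILC3 markers in the fall of Il13 was not tested.

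Of 24 receptors that act upstream of type 2 cytokines 2 rose in STA against healthy (median 0.36), 1 fell in STA + Il23mc against STA (median 0.08) and 5 rose in STA + Il23mc against healthy (median 0.45). The costimulatory receptor Tnfrsf4 (OX40) was at 82.5, 31.9 and 32.4 CPM in STA + Il23mc mice, 111, 93.1 and 114 CPM in STA mice and 20.1, 19.2 and 16.0 CPM in healthy mice. It rose in STA by 2.57 (adjusted p = 0.000165, edgeR) and fell in STA + Il23mc against STA by 1.12 (adjusted p = 0.0428, edgeR), and the 3 groups did not overlap. Il2rg, the receptor chain shared by interleukin-4 and interleukin-2, rose in STA by 0.59 (adjusted p = 0.0266, edgeR). Icos (0.63, adjusted p = 0.00687, edgeR) and the interleukin-2 receptor chain Il2ra (0.73, adjusted p = 0.0107, edgeR) rose in STA + Il23mc against healthy. Without cells holding Cd3d or Cd3e Tnfrsf4 was at 49.2, 28.9 and 31.7 CPM in STA + Il23mc mice, against 78.0, 92.1 and 117 CPM in STA mice, and fell by 1.39 (adjusted p = 0.00122, edgeR). The receptors then counted 3 higher in STA against healthy, and 2 higher and 1 lower in STA + Il23mc against STA. In STA + Il23mc against healthy 9 were higher and 1 lower. The share of all genes called in that fit is not given, so these counts are not read as a result about the receptors.

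Of 28 transcription factors of the type 2 locus 1 rose in STA against healthy (median 0.02), 1 fell in STA + Il23mc against STA (median 0.10), and 3 rose and 1 fell in STA + Il23mc against healthy. Bhlhe40, a factor that sustains cytokine production in T cells, rose by 0.92 in STA (adjusted p = 0.0288, edgeR) and by 0.96 in STA + Il23mc (adjusted p = 0.0101, edgeR) against healthy. Hlf was at 314, 346 and 329 CPM in STA + Il23mc mice, 526.3, 542 and 488 CPM in STA mice and 585, 766 and 759 CPM in healthy mice. It fell in STA + Il23mc by 0.60 against STA (adjusted p = 0.0401, edgeR) and by 0.98 against healthy (adjusted p = 0.000402, edgeR), and the 3 groups did not overlap. Batf rose in STA + Il23mc against healthy by 0.82 (adjusted p = 0.0313, edgeR), a call lost without cells holding Cd3d or Cd3e. It then stood at 41.6, 49.0 and 62.2 CPM in STA + Il23mc mice, against 44.6, 32.6 and 46.95 CPM in healthy mice, with overlap (0.51, adjusted p = 0.171, edgeR), and STA + Il23mc mouse 1 had 88.0 CPM with these cells. Hlf against STA was then at -0.43 and did not pass either (adjusted p = 0.115, edgeR). Without these cells 2 of the factors were higher in STA against healthy, 2 were higher and none lower in STA + Il23mc against STA, and 7 were higher and 1 lower in STA + Il23mc against healthy. None of 10 mRNA decay factors passed in STA against healthy or in STA + Il23mc against STA, and 1, Zfp36l1, rose in STA + Il23mc against healthy (0.50, adjusted p = 0.0409, edgeR). Of 12 receptors and signal chains of the 4 cytokines 1 rose in STA, none passed in STA + Il23mc against STA, and 1 fell against healthy, the STAT5 target Cish (-0.48, adjusted p = 0.0412, edgeR). Without cells holding Cd3d or Cd3e, 1 decay factor was lower in STA against healthy, 1 was higher in STA + Il23mc against STA and 2 were higher against healthy, and of the receptors and signal chains 3 were higher and 1 lower in STA + Il23mc against healthy. Beside the counts over all ILC2 cells, 1.5% of all tested genes were higher and 1.28% lower in STA against healthy. The shares were 1.18 and 0.528% in STA + Il23mc against STA, and 4.68 and 2.85% in STA + Il23mc against healthy. Such shares are not given for the fit without cells holding Cd3d or Cd3e. The list counts from that fit are therefore not read as a result about the lists.

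The genes most like each member are given as a description. Over 3957 ILC2 cells, with values centred within each hashtag and 6227 genes compared, the gene most correlated with Il13 was Il5 (Pearson r = 0.41), and Il13 was second for Il5 (r = 0.41) after Hilpda, a lipid droplet protein (r = 0.42). Il2ra and Jak2 were among the 5 highest for both. For Csf2 the highest were Il5 and Il13 (r = 0.24 each), and for Il4 the highest was Il13 (r = 0.18), ahead of Il2 (r = 0.12). The correlation of Il4 with Il5 was 0.05. These cells share wells and depth, and correlations below 0.2 in sparse counts are weak. Over the 9 mice of experiment 1 the genes most like Il13 were Mrps28 (r = 0.97), Atr (r = 0.96) and Eif1 (r = 0.95), those most like Il5 were Hat1 (r = 0.96), Plscr1 (r = 0.95) and Areg (r = 0.92), those most like Csf2 were Il10ra (r = 0.96), Rab27b (r = 0.94) and Pdcd4 (r = 0.93), and those most like Il4 were Tmsb10 (r = 0.90), Rhno1 (r = 0.90) and Hnrnpa2b1 (r = 0.88). These are the highest of 7393 genes over 9 mice in 3 groups.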

How the data were processed

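RNA of sorted synovial cells was read in 6 wells of droplet 3-prime chemistry with hashtag antibodies; the 4 ILC wells were used here and the fibroblast wells were read only for UMIs of the 4 genes. The deposited matrices hold raw UMI counts per gene and barcode, for which the file headers name Cell Ranger 6.1.2, and the submitters' processing notes name 6.0.6 and mm10. The authors also deposited a table with UMI counts, the mitochondrial fraction, a hashtag call and a class for each cell they kept; how these were made is not given in the sources used here.

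The authors' calls and classes were used for healthy and STA + Il23mc cells. STA cells are not in that table. HTODemux of Seurat 5.3.0, at quantile 0.99, assigned their hashtags; it gave the same hashtag as the authors for 98.3 and 98.6% of annotated cells in the other wells of experiment 1 and 70.3% in the well of experiment 2, and its doublets were left out. They were kept with at least 2000 UMIs, 700 genes and at most 10% mitochondrial UMIs, and classed by 15 nearest annotated neighbours in 30 components of 2000 variable genes, scaled to 10000 counts per cell and centred within each well, without the 4 genes (scanpy 1.11.5, scikit-learn 1.9.0). Doublets within a hashtag were not called.

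Counts were summed per mouse over ILC2 cells and compared in 1 fit of the 9 mice of experiment 1 by edgeR 4.0.16 (quasi-likelihood test, TMM factors, filterByExpr; R 4.3.3), Benjamini-Hochberg adjusted over 7393 genes, at a threshold of 0.05. Shares used cells thinned to 2000 UMIs and exact permutation tests. Odds ratios had 0.5 added to each count. Intervals are 95% exact ones and cover counting error only. The statistics were tested on simulated data. Alternatives were DESeq2 1.42.0, other factors, filters, cell sets and fits, each mouse left out, and a replicate block. Other software was matplotlib 3.10.9, pandas 2.3.3, scipy 1.17.1 and numpy 2.4.6 under Python 3.11.15. The 4 genes, the lists and the tests were chosen with earlier results of these data known. Ccni, which lies on another chromosome, was taken off the list of neighbours after its values were seen. Named besides the 4 genes are up to 3 called members of each list with the largest change in each comparison, and the 3 genes over mice and 5 over cells with the highest correlation to each, without sex-linked, mitochondrial, ribosomal protein and predicted genes.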

Additional observations from a re-analysis of the deposited data

Results flagged for a closer look

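Chance marks about 1 in 20 groups of samples as holding a value apart from the others. Among the 5 STA hashtags of both experiments, STA mouse 3 stood apart in Il4 level at 105 CPM. STA mouse 1 stood apart in the thinned share of Il4-positive ILC2 cells at 10.1%. These are different mice: the first had many Il4 UMIs in few cells, and the other had few UMIs in each of many cells.

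UMIs of the 4 genes were also found in the fibroblast wells, which the comparisons do not use. The well of experiment 1 held 68 Csf2 UMIs in 27 of 6446 barcodes, and none of these barcodes held the leukocyte gene Ptprc. The well of experiment 2 held 250 Csf2 UMIs in 32 of 4282 barcodes, 26 Il4 UMIs in 9 barcodes, of which 7 held Ptprc, and 32 Il13 UMIs in 3 barcodes, with 25 in 1 of them. Il5 had no UMI in either well. The annotated cells of these wells, chondrocytes and osteoblasts included, held Csf2 at 1.37 CPM in experiment 1 and 7.48 CPM in experiment 2.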

How the results depend on the processing

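Of the log2 fold changes under alternatives other than leaving out mice, 103 kept their direction and their side of the threshold. A further 13 passed it where the main fit did not, 4 no longer passed it and 4 changed direction. Without the filter on low counts 467, 396 and 873 genes were called in STA against healthy, STA + Il23mc against STA and STA + Il23mc against healthy, against 206, 126 and 557 with it; Il4 then stood at -0.96 against STA and 0.83 against healthy in STA + Il23mc, Il5 at 0.69 in STA and 0.59 in STA + Il23mc against healthy, and Csf2 at 0.86 in both, all past the threshold. Fitted with only the groups compared, 320 genes passed in STA against healthy, with Il5 at 0.71 and Csf2 at 0.88 past it. Over all lymphoid cells 26 passed there, and Il4 (1.48) and Il13 (-1.50 against STA, -1.57 against healthy) did not pass. With 1 rule for calls and classes Il4 stood at 1.59 in STA and did not pass. Without cells holding Cd3d or Cd3e 195 genes passed in STA + Il23mc against STA, Il5 (0.043) and Csf2 (0.26) turned upward there with no call, and Csf2 (0.87 in STA, 1.12 in STA + Il23mc) and Il5 (0.80 in STA + Il23mc) passed against healthy. Csf2 in STA + Il23mc against STA also turned, with no call, without mast cell markers (0.048) and without the highest cells (0.037). The causes were not tested, except that the wider filter and smaller sets change the genes or cells tested. Not thinned, Il4 was co-detected with Csf2 (0.44) and Il5 (0.53) past the threshold.

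Leaving out each mouse gave 61 to 163, 64 to 144 and 330 to 619 called genes in the same order of comparisons. The ranges of the log2 fold change in STA against healthy were 1.29 to 2.16 for Il4. In STA + Il23mc they were -1.42 to -0.94 against STA and -1.58 to -1.11 against healthy for Il13, -0.35 to 0.31 and 0.52 to 1.19 for Csf2, and -0.53 to 0.11 and 0.18 to 0.83 for Il5. The difference in shares of STA + Il23mc mice ran from -3.51 to 1.80 points for Csf2 against STA and from -0.73 to 5.51 points for Il5 against healthy. The co-detection of Il4 and Csf2 ran from 0.34 to 0.504 without a mouse and was 0.33 without the mild STA hashtag.

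Mouse numbers name different mice in each well, and deviations of equal numbers correlated at -0.13 to 0.13, so they do not pair the mice. With the number as a replicate block, Il5 passed in STA (0.75) and STA + Il23mc (0.56) against healthy, and no other call of the 4 genes changed. Depth limits Il4 most, with 17 to 200 UMIs per hashtag, and 3 mice against 3 cannot give a p under 0.1 for a share.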
